A study of Mus musculus with 4 samples.

Results

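The Notch receptors *Notch1*, *Notch2* and *Notch3*, the ligands *Jag1*, *Jag2* and *Dll1*, and the target genes *Hes1*, *Hes5*, *Hey1* and *Heyl* were followed across the regions of mouse dorsal skin. These 10 genes were taken by symbol from the 32286 features counted in each sample, and all 10 had counts. The samples were 4 slices profiled by Visium spatial transcriptomics, in which polyadenylated RNA of a tissue section is captured on a grid of barcoded spots and each captured molecule is counted once by its unique molecular identifier (UMI). All 4 slices came from the same 3 Krox20-CreERT; R26-tdTomato mice, which received 4-hydroxytamoxifen at P2 and were collected at P38, and each slice held 1 skin section of each mouse. The study left a section with distorted structure out of its own analysis, the labels do not tie spots to it, and all deposited spots were used, so its spots may be among them. Its figure legend also speaks of 4 skin samples, so whether spots of a further sample are present is not known. In this line a tamoxifen-inducible Cre is expressed from the *Krox20* locus and a red fluorescent reporter from the *Rosa26* locus. Every slice carried the same alleles and treatment, so the comparisons were between regions of the skin and not between genotypes or times.

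Notch receptors are single-pass membrane proteins that are bound by Jagged or Delta ligands on a neighboring cell. Binding leads to cleavage of the receptor, and the released intracellular domain joins RBPJ and Mastermind coactivators on DNA to turn on target genes, among which the *Hes* and *Hey* families encode transcriptional repressors. In skin the pathway is known for its part in the differentiation of the suprabasal epidermis and of the hair matrix, inner root sheath and shaft, and in blood vessels *Notch3* is known as a receptor of smooth muscle cells and pericytes.

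The promoters are shown because *Notch1* and *Jag1* were called in the same direction in 4 of the 5 region comparisons below and because RBPJ binds a short motif, which was searched for in them. RefSeq promoters on GRCm38.p6, each of 300 bases with 250 before and 50 after the start, were held for 7 of the 10 genes. None was held for the targets *Hes1*, *Hey1* and *Heyl*, so these were not searched. The letters TGGGAA on either strand were found in 25.6% of all 32851 promoters, and the longer GTGGGAA, which contains it, in 6.38%. Among the 7 genes only *Hes5* held either motif. Its copies of TGGGAA began at -82 and -226 from the start, the second on the opposite strand. Each lay within a copy of GTGGGAA, which is in capitals below. The windows are chr2:26503773-26504072 on the minus strand for *Notch1*, chr2:137116471-137116770 on the minus strand for *Jag1* and chr4:154960673-154960972 on the plus strand for *Hes5*, and each sequence runs 5′ to 3′ along its gene.
Notch1: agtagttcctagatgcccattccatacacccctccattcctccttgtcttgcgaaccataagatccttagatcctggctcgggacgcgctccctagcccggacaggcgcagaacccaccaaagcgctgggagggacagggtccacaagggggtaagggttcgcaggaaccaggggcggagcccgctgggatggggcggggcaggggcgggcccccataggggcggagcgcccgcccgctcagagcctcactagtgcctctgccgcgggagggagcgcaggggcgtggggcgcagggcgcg
Jag1: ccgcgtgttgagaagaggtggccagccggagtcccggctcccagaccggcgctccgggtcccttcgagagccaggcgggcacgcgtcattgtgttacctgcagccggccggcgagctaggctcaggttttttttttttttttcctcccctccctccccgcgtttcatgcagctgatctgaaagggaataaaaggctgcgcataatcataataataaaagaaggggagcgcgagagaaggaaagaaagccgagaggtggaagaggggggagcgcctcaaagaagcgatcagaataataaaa
Hes5: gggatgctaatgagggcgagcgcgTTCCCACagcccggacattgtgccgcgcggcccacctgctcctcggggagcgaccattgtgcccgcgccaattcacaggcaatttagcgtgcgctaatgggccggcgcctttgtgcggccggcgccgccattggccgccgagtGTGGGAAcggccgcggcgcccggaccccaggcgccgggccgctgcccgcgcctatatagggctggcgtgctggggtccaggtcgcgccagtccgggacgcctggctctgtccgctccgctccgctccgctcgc
A match of letters is a description of sequence only. In the counts *Hes5* had 25 UMIs in all, so its level could not be set beside its motifs.

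The slices held 19393026 to 26910422 UMIs and 6420 spots, of which 6411 had at least 250 genes and were kept, with a median of 12618 UMIs. Spots were clustered without the Notch pathway genes, and marker lists with the leading genes gave names to 12 of 18 clusters, which made 11 regions. The regions were epidermis (led by *Lor* and *Krt10*), upper follicle (*Cst6* and *Klk10*), sebaceous gland (*Scd3* and *Cidea*), outer root sheath (*Slc4a1* and *Atp2c2*), matrix (*Top2a* and *Mki67*, with *Mt1* and *Mt2*), a *Dct*-led region with pigment genes and *Krt35*, a *Krt32*-led region in which inner root sheath and early shaft markers were not separated, late shaft (*Krtap13-1* and *Krt83*), an *Adipoq*-led region, skeletal muscle and a region rich in MHC class II genes. A spot covers several cells, and no region was pure: the summed level of 7 inner root sheath markers was 69902 CPM (UMIs per 1000000 UMIs of the region) in the *Krt32*-led region, 64294 CPM in the late shaft, 41874 CPM in the *Adipoq*-led region, 41598 CPM in the *Dct*-led region, 26489 CPM in muscle and still 11886 CPM in the upper follicle, where it was lowest. The early shaft list, of which 6 markers were in the files, summed to 2343 CPM in the *Krt32*-led region but to 2866 CPM in the *Dct*-led region and 3378 CPM in the late shaft. The 9 outer root sheath markers summed to 17766 CPM in the outer root sheath region and 17275 CPM in the upper follicle, with overlapping slices. Inner root sheath markers summed to 31295 CPM in the outer root sheath region. The *Adipoq*-led region was chosen by 3 of 8 adipose markers, which summed to 1669 CPM there and to 2606 CPM in muscle, and so is called here by its leading gene. The outer root sheath region had 52 spots in slice 1 against up to 243 in another slice. A cluster of 273 spots, 265 of them in slice 1, was left unnamed. It shared *Slc4a1*, *Atp2c2* and other leading genes with the outer root sheath, but *Krtap19-1* was also among its leading genes and its highest list was that of the late shaft.

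*Notch1*, located on chromosome 2 at 26457903-26516663 of GRCm38, was the receptor with the most marked order over the regions. Its level in the matrix was 271, 264, 304 and 275 CPM in slices 1 to 4, a mean of 279 ± 17.8 CPM (SD, n = 4 slices, as for all means below). In the outer root sheath it was 204, 177, 212 and 201 CPM, and in the epidermis 111, 90.8, 122 and 124 CPM. Every matrix slice lay above every outer root sheath slice, and every outer root sheath slice above every epidermis slice. The *Dct*-led region (224 ± 16.0 CPM) and the *Adipoq*-led region (201 ± 22.4 CPM) followed the matrix, and the sebaceous gland (85.4 ± 11.5 CPM) and late shaft (87.2 ± 15.9 CPM) were at the end. Of the 10 pairs of neighbors in this order, 2 did not overlap between slices, namely matrix over the *Dct*-led region and outer root sheath over muscle. Muscle held 144 ± 7.59 CPM, a level that spots outside the follicle also showed. *Notch1* overlaps 2 features of the opposite strand, *0610009E02Rik* and *Gm13568*.

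*Notch2*, on chromosome 3 at 98013527-98150361, had another order. It was highest in the *Krt32*-led inner root sheath and early shaft region, with 73.3, 103, 96.0 and 93.0 CPM in slices 1 to 4, and next in the late shaft with 73.6, 80.1, 86.8 and 87.4 CPM. In the matrix it was 39.5, 35.3, 44.8 and 48.0 CPM and in muscle 41.7 ± 2.17 CPM. All slices of the *Krt32*-led region and of the late shaft were above all slices of the matrix, while the epidermis (65.7 ± 13.3 CPM) lay between them. Across its 10 neighboring pairs the slices always overlapped. Under the TMM scaling of the tests below, *Notch2* was not lower in the late shaft than in the *Krt32*-led region.

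*Notch3*, on chromosome 17 at 32120820-32166852, varied least among the receptors over the regions, from 24.1 ± 8.64 CPM in the late shaft to 43.0 ± 8.27 CPM in the upper follicle. No 2 neighbors in its order were apart. It overlaps *Gm17276* on the opposite strand.

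Of the ligands, *Jag1*, on chromosome 2 at 137081456-137116644, was highest in the *Dct*-led region at 114, 130.0, 140.3 and 133 CPM and in the matrix at 105, 109, 108 and 123 CPM. The outer root sheath held 82.1, 84.5, 83.1 and 84.4 CPM. These outer root sheath values were below those of every matrix slice, which was the only neighboring pair of 10 that did not overlap. The *Adipoq*-led region (82.7 ± 9.29 CPM) was close to the outer root sheath, and the late shaft (35.2 ± 11.2 CPM) and sebaceous gland (36.7 ± 3.13 CPM) were lowest, so that the highest mean was 3.67 times the lowest. *Jag2*, on chromosome 12 at 112907819-112929776, ranged from 30.3 ± 7.64 CPM in the late shaft to 62.1 ± 11.7 CPM in the outer root sheath. *Dll1*, on chromosome 17 at 15367354-15376872, had 835 UMIs in all and ranged from 7.35 ± 4.04 CPM in the MHC class II-rich region to 12.6 ± 4.05 CPM in the matrix.

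Among the targets, *Hes1*, on chromosome 16 at 30064384-30067796, was detected in every region, from 56.4 ± 15.2 CPM in the late shaft to 119.9 ± 20.8 CPM in the outer root sheath. The upper follicle (116 ± 13.3 CPM) and epidermis (101 ± 16.6 CPM) came next, with overlapping slices. CPM scales by library size alone, and where the late shaft stands in these orders depends on the scaling. Against the *Krt32*-led region, the median log2 fold change of all genes was -0.32 with library size alone and -0.06 with TMM, used in the tests below. *Hes1* and *Jag2* were called lower in the late shaft with library size alone and not with TMM. *Heyl*, on chromosome 4 at 123233556-123249875, had the widest range of the 9 genes with counts in every region, 6.82 times between its highest and lowest mean. It was 40.6, 49.0, 58.3 and 64.2 CPM in the *Dct*-led region, 39.1, 32.2, 44.7 and 39.6 CPM in the *Krt32*-led region and 10.5, 6.05, 8.41 and 6.10 CPM in the epidermis. Every slice of the first 2 regions was above every epidermis slice, whereas the first 2 overlapped each other. *Hey1*, on chromosome 3 at 8663359-8667256, had 301 UMIs in 6411 spots and no region above 4.91 ± 2.51 CPM. *Hes5*, on chromosome 4 at 154960923-154962371, reached at most 0.585 ± 0.462 CPM, with 4 UMIs, and had none in the upper follicle, where 3 UMIs would be 1.06 CPM, or in the late shaft, where they would be 0.888 CPM. No order of the regions can be given for *Hes5* at this depth, and it overlaps *Gm20421* on the opposite strand.

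**Figure D1:**
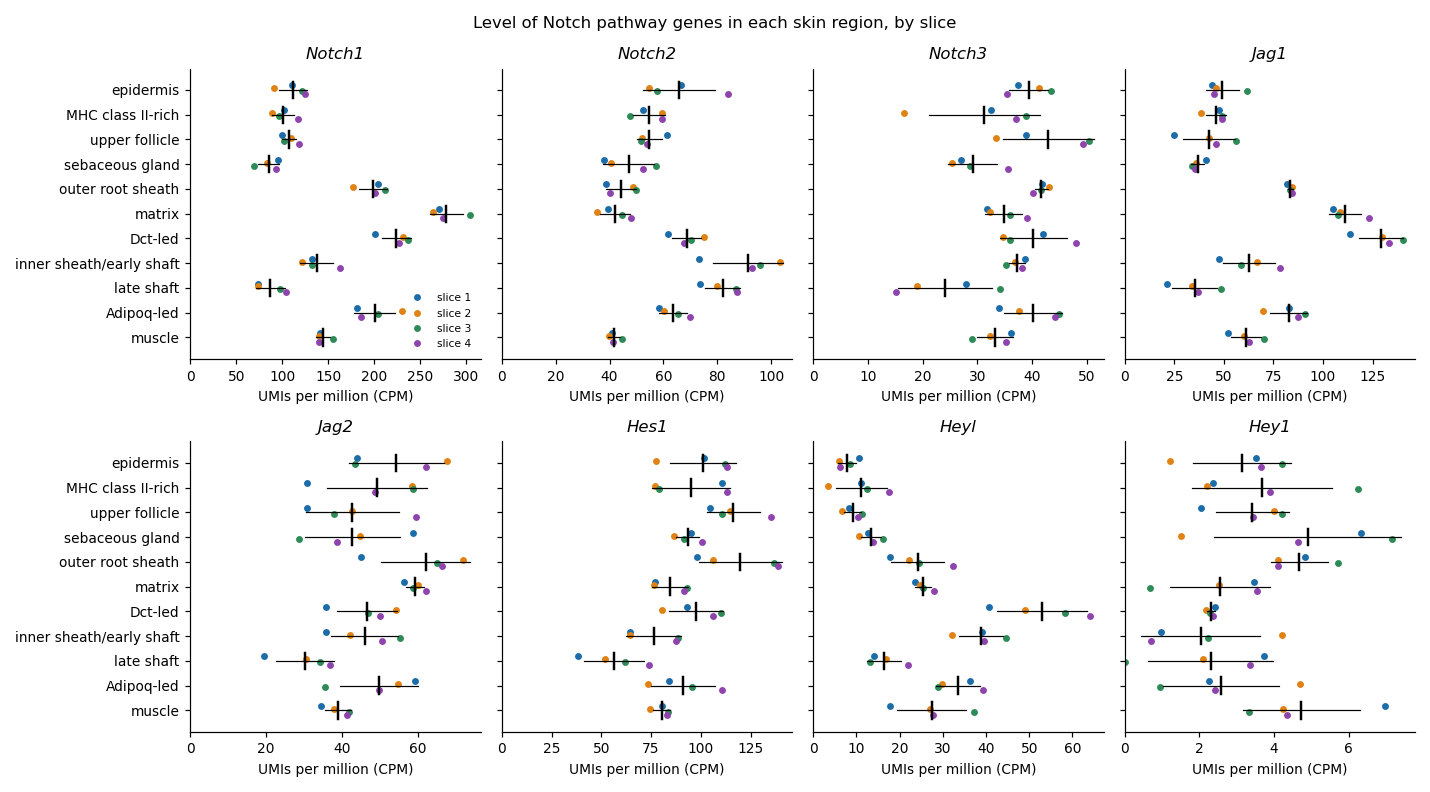
Level of 8 Notch pathway genes in 11 regions of dorsal skin, in CPM (horizontal axis, its own scale for each gene); points are the 4 slices, vertical ticks their mean and horizontal lines the SD. *Notch1* reached 279 CPM in the matrix, *Notch2* 91.5 CPM in the inner root sheath and early shaft region, and *Heyl* 53.0 CPM in the *Dct*-led region against 7.77 CPM in the epidermis.

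Spots with at least 1 UMI gave a similar picture at equal depth. Matrix spots were deep, with a median of 24514 UMIs against 8777 in the epidermis, and 98.4% of matrix spots against 61.6% of epidermis spots had a *Notch1* UMI. With each spot thinned to 5500 UMIs and shallower spots left out, these shares were 77.0% and 44.3%. For *Heyl* the shares were 66.1% in the *Dct*-led region and 7.59% in the epidermis, and 21.8% and 4.51% after thinning. Fewer cells of a kind in a spot and less RNA per cell cannot be told apart in these data, here or in the comparisons that follow.

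Levels were also read by distance from the epidermis, which uses no other region. *Notch1* was 112 ± 15.3 CPM in epidermis spots, 105 ± 13.3 CPM 1 grid step away, 175 ± 10.1 CPM at 3 to 4 steps and 208 ± 7.35 CPM at 7 to 8 steps. *Jag1* was 49.2 ± 8.38 CPM in the epidermis and 91.8 ± 4.57 CPM at 7 to 8 steps, and *Heyl* 7.77 ± 2.14 CPM and 32.1 ± 5.09 CPM. All 3 genes were higher at 7 to 8 steps than in the epidermis in every slice, with *Notch1* at 155 ± 17.0 CPM beyond, at 9 to 12 steps. *Hes1* was not higher, with 101 ± 16.6 CPM in the epidermis and 81.1 ± 5.32 CPM at 7 to 8 steps. Around the matrix, *Notch1* was 279 ± 17.8 CPM in matrix spots, 178 ± 6.65 CPM in the spots next to them and 142 ± 10.5 CPM at 2 steps. *Heyl* peaked outside the matrix: it was 25.4 ± 1.90 CPM in matrix spots, 37.5 ± 7.65 CPM 1 step away and 25.6 ± 4.16 CPM at 2 steps. Its value 1 step away was above that of the matrix in all 4 slices. The steps mixed regions and are not positions along a follicle. Muscle was the commonest named region 1 step from the matrix (34.5% of spots). It was also the commonest at 7 to 8 steps (41.1%) and 9 to 12 steps (78.1%) from the epidermis.

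**Figure D2:**
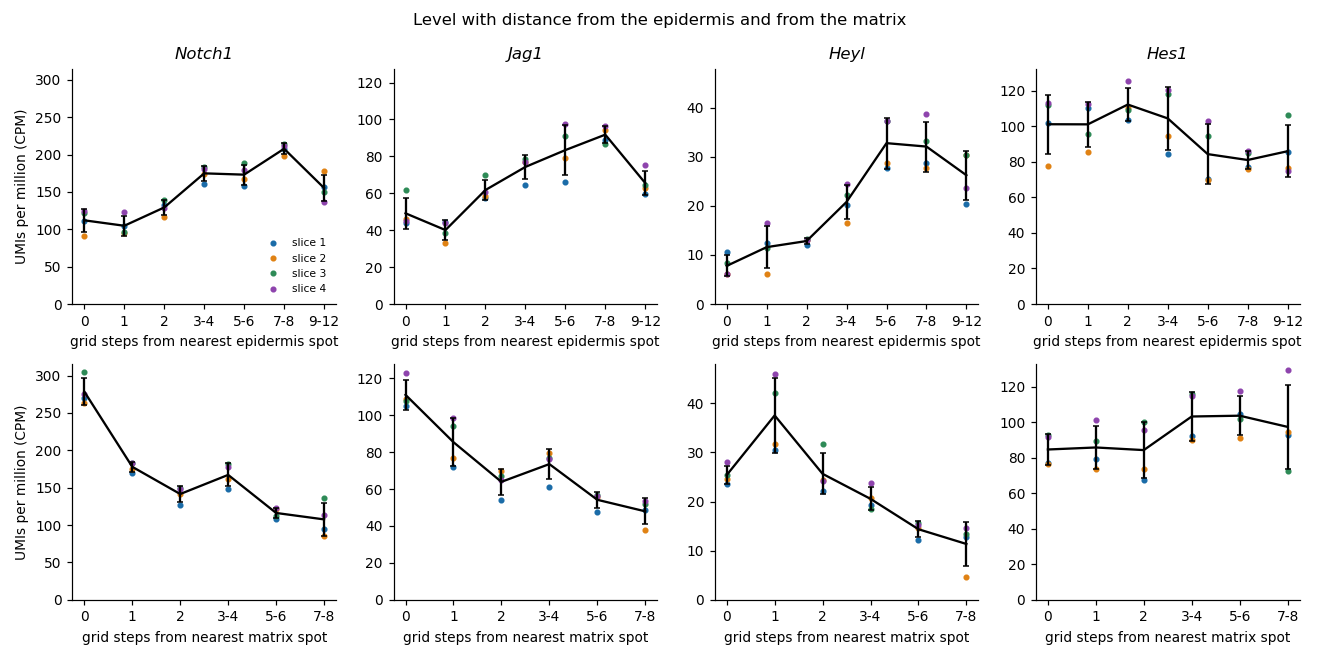
Level of *Notch1*, *Jag1*, *Heyl* and *Hes1* in CPM (vertical axis) by grid steps from the nearest epidermis spot (top row) or matrix spot (bottom row); points are the 4 slices and lines their mean with SD. *Notch1* was 279 CPM in matrix spots and 178 CPM 1 step away, while *Heyl* was 25.4 CPM in matrix spots and 37.5 CPM 1 step away.

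The first comparison asked whether the genes differed between epidermis and upper follicle. UMIs summed per slice and region were tested with edgeR's quasi-likelihood test with slice as a block, and a gene was called where its p adjusted over all genes tested (Benjamini-Hochberg) was under 0.05. The slices are sections of the same mice, so these p-values measure the spread between slices and not between animals. In each region comparison 8 of the 10 genes passed the filter on low counts, *Hes5* and *Hey1* being left out. Of these 8 genes 0 were called, against 24.6% of all 11476 genes tested. None had an unadjusted p under 0.05 in edgeR, against 3814 of all 11476 genes, and DESeq2 also called 0 of the 8. The intervals of the differences were widest for *Dll1* and *Heyl*, and that of *Notch1* on the log2 scale was -0.25 to 0.18. Among the 57 other genes of the pathway, 47 were tested, of which 6 were higher and 5 lower in the upper follicle, beside 11.9% and 12.7% of all genes. *Neurl1a*, which encodes a ubiquitin ligase of Notch ligands, was 1.89 ± 0.73 higher (log2 fold change ± SE, as below, adjusted p = 0.0449, on 13 and 5 UMIs), and *Maml2*, a Mastermind coactivator, 1.18 ± 0.43 higher (adjusted p = 0.0298). *Gata3*, a transcription factor of epidermal differentiation, was lower at -1.55 ± 0.09 (adjusted p = 2.21e-33).

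Between outer root sheath and epidermis, 4 genes were higher in the outer root sheath and 1 lower, out of 8, beside 40.3% of all genes called (19.6% higher and 20.7% lower). *Notch1* was higher by a log2 fold change of 0.78 ± 0.09 (edgeR adjusted p = 4.89e-14), *Jag1* by 0.73 ± 0.12 (adjusted p = 1.45e-07) and *Heyl* by 1.51 ± 0.25 (adjusted p = 7.05e-08). The slices of the 2 regions did not overlap for any of these 3 genes. *Notch2* was lower at -0.60 ± 0.13 (adjusted p = 2.54e-05), with 38.6, 48.6, 49.7 and 40.2 CPM in the outer root sheath against 66.7, 54.5, 57.4 and 84.1 CPM in the epidermis, and again with no overlap. *Hes1* was higher by 0.24 ± 0.10 (adjusted p = 0.0388), with 98.2, 106, 137 and 139 CPM against 102, 77.5, 112 and 113 CPM. Its slices overlapped, and the call was lost without slice 2 (adjusted p = 0.162), slice 3 (0.115) or slice 4 (0.0526). It was also lost with DESeq2 (0.0797), RPCA integration (0.0735), 5500 UMIs per spot (0.270) and 24 clusters, where the log2 fold change was 0.14 (0.397). *Notch3*, *Jag2* and *Dll1* were not called.

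Of the 47 other pathway genes tested, 8 were higher and 8 lower in the outer root sheath than in the epidermis, beside 19.6% and 20.7% of all genes. *Fbxw7*, which directs the degradation of the Notch intracellular domain among other proteins, was higher by 1.70 ± 0.16 (adjusted p = 4.35e-19) and *Maml2* by 1.40 ± 0.34 (adjusted p = 0.000282). *Gata3* was lower at -1.58 ± 0.08 (adjusted p = 3.42e-41). The receptor-cleavage genes of the list had 0 higher and 3 lower of 10 tested, beside the same shares of all genes.

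Between matrix and outer root sheath, *Notch1* and *Jag1* were higher and *Hes1* lower in the matrix, 3 of 8 genes, where 68.2% of all genes were called (35.5% higher and 32.7% lower). *Notch1* was higher by 0.54 ± 0.07 (adjusted p = 6.88e-12) and *Jag1* by 0.46 ± 0.09 (adjusted p = 1.07e-06). *Hes1* was 77.2, 76.6, 92.9 and 91.5 CPM in the matrix and lower by -0.50 ± 0.08 (adjusted p = 3.78e-08). For all 3 genes the slices of the 2 regions did not overlap, so that *Hes1* was lower in the region where this receptor and ligand were higher. Of 13 other target or feedback genes of the pathway tested, 5 were higher, *Nrarp* among them, and 6 lower. This class mixes targets with regulators of the pathway, such as *Fbxw7* and *Numb* among the lower ones, and so does not give a direction of targets. *Heyl* did not pass the test (0.07 ± 0.14, 95% interval -0.21 to 0.35), but was called higher in the matrix with 12 clusters (0.37, adjusted p = 0.00547), no clusters (0.44, adjusted p = 0.0232) and RPCA integration (0.50, adjusted p = 5.44e-05). *Notch3* missed the threshold at -0.24 ± 0.12 (adjusted p = 0.0677) and passed it without slice 4 (adjusted p = 0.0370).

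In the same comparison 15 of the 47 other pathway genes were higher in the matrix and 17 lower, beside 35.5% and 32.7% of all genes. *Hes2*, another gene of the *Hes* family, was higher by 1.70 ± 0.34 (adjusted p = 3.46e-06), with 7.28 ± 1.49 CPM in the matrix, and the acetyltransferase gene *Kat2a* by 1.30 ± 0.13 (adjusted p = 1.57e-18). *Fbxw7* was lower at -2.20 ± 0.13 (adjusted p = 1.08e-36) and *Maml2* at -1.48 ± 0.25 (adjusted p = 3.98e-08). By class, 7 genes of the nuclear complex were higher and 4 lower of 15 tested, *Rbpj* among the higher ones (0.37 ± 0.13), and 1 cleavage gene was higher and 4 lower of 10.

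Between the inner root sheath and early shaft region and the matrix, 2 genes were higher and 4 lower out of 8, where 60.2% of all genes were called (26.9% higher and 33.4% lower). *Notch2* was higher by 1.19 ± 0.10 (adjusted p = 9.84e-23), and *Heyl* by 0.67 ± 0.14 (adjusted p = 6.72e-06). *Notch1*, at 133, 121, 132 and 163 CPM, was lower by -0.97 ± 0.07 (adjusted p = 5.10e-26), and *Jag1*, at 47.4, 66.5, 58.6 and 78.5 CPM, by -0.78 ± 0.09 (adjusted p = 1.66e-13). The slices of the 2 regions did not overlap for any of these 4 genes, and the receptors *Notch1* and *Notch2* thus differed in opposite directions. *Jag2* was lower at -0.33 ± 0.12 (adjusted p = 0.0141) and *Dll1* at -0.61 ± 0.24 (adjusted p = 0.0220). These calls were weaker, that of *Jag2* being lost without slice 1 (adjusted p = 0.153) or slice 2 (0.115) and that of *Dll1* without slice 2 (0.0730) or slice 4 (0.384). *Hes1* did not pass (-0.10 ± 0.09).

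Inner root sheath and early shaft could be set apart only by giving each spot the marker list in which it stood highest, with no clusters. In that grouping *Notch1* was lower than in the matrix both in inner root sheath spots (-0.84 ± 0.07) and in early shaft spots (-0.55 ± 0.08), and *Notch2* was higher in both (0.98 ± 0.10 and 0.86 ± 0.12), beside 59.3% and 41.9% of all genes called. *Heyl* was also higher in both (0.62 ± 0.13 and 1.00 ± 0.16). *Jag1* was lower in inner root sheath spots (-0.73 ± 0.09), and in early shaft spots its difference from the matrix was -0.06 ± 0.10 (adjusted p = 0.679). Whether the 2 groups differ from each other in *Jag1* was not tested.

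Among the other pathway genes, 13 were higher and 13 lower of 47 in the *Krt32*-led region than in the matrix, beside 26.9% and 33.4% of all genes. *Numb*, whose product is known to antagonize Notch, was higher by 1.96 ± 0.14 (adjusted p = 1.08e-28), from 14.7 ± 1.81 CPM in the matrix to 54.9 ± 6.05 CPM. *Hes6* was lower at -1.29 ± 0.18 (adjusted p = 3.26e-10). *Dtx1*, a Deltex gene, had 9 UMIs in the matrix and 0 in the *Krt32*-led region, at least 1.72-fold higher in the matrix with a floor of 3 UMIs over the region. Of the nuclear complex, 3 genes were higher and 8 lower of 15 tested.

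**Figure D3:**
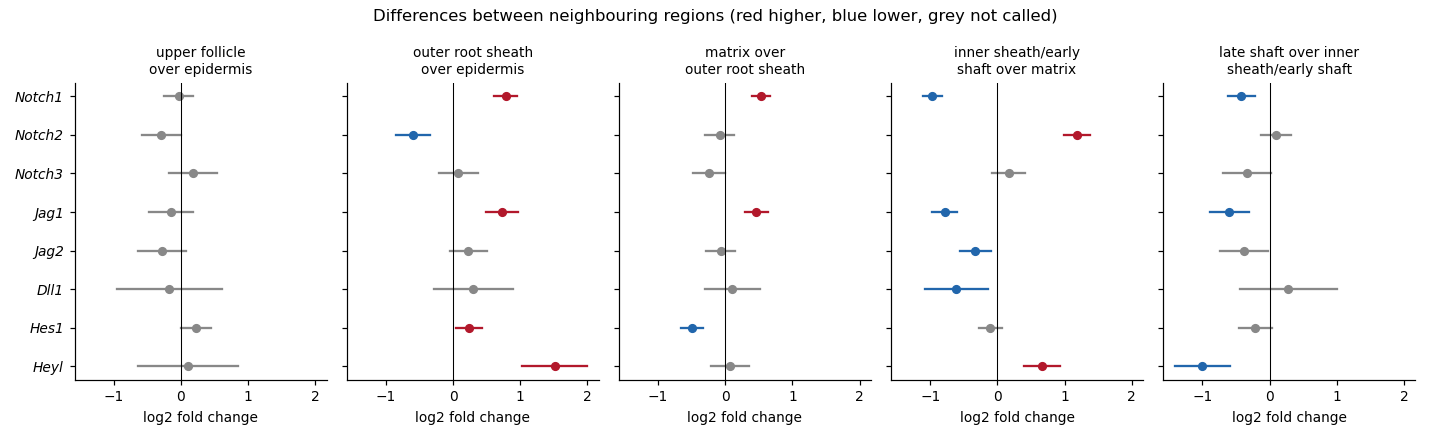
Log2 fold change between regions (horizontal axis) of the 8 genes tested, with 95% intervals, from edgeR; red marks genes called higher, blue genes called lower at an adjusted p under 0.05, and grey the rest. *Notch1* and *Jag1* rose from epidermis to outer root sheath to matrix and fell from matrix to inner root sheath and early shaft, where *Notch2* was higher by 1.19.

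Between late shaft and the inner root sheath and early shaft region, 3 of 8 genes were lower in the late shaft and 0 higher, beside 19% of all genes called (12.7% higher and 6.3% lower). *Heyl* was 14.0, 16.9, 13.2 and 21.9 CPM in the late shaft, below every slice of the *Krt32*-led region, and lower by -1.0 ± 0.21 (adjusted p = 6.02e-05). *Notch1* was 73.6, 73.8, 97.4 and 104 CPM, also without overlap, and lower by -0.42 ± 0.10 (adjusted p = 0.000628). *Jag1* was 21.4, 33.7, 48.7 and 37.0 CPM, with overlap in 1 slice, and lower by -0.60 ± 0.15 (adjusted p = 0.000924). The directions of *Notch1* and *Jag1* turned when the regions were drawn another way. With the slices integrated by RPCA before clustering, *Notch1* was called higher (0.22, edgeR adjusted p = 0.0219) and *Jag1* was at 0.074 with no call. *Notch2* was lower there at -0.66, whereas *Heyl* stayed lower in each of its 14 refits (-1.26 to -0.84). The late shaft region held 214 spots, and unnamed clusters of 486, 273 and 186 spots also had the late shaft list highest. Scaling by library size alone in place of TMM moved the median log2 fold change of all genes from -0.06 to -0.32 and the share of higher among called genes from 66.9% to 24.2% (79.4% with DESeq2), and gave 6 members lower. With the regions as named above and TMM, 0 members were higher at an unadjusted p under 0.05 in edgeR, and DESeq2 called 0 higher. Late shaft against early shaft spots, grouped by marker lists without clusters, differed in 5 members, beside 42.1% of all genes called. *Jag2* was higher (0.48 ± 0.14, adjusted p = 0.00377) and *Notch2* lower (-0.40 ± 0.12, adjusted p = 0.00303), while *Heyl* (-1.11 ± 0.16), *Jag1* (-0.53 ± 0.11) and *Notch1* (-0.20 ± 0.08, adjusted p = 0.0402) were lower. The regions compared with clusters shared their markers: the inner root sheath list summed to 61425 to 67872 CPM over the slices in the late shaft and 65877 to 72010 CPM in the *Krt32*-led region, and the 9 late shaft markers to a mean of 35767 CPM and 11975 CPM. The part of these markers in the differences was not tested.

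Of the 47 other pathway genes, 5 were higher and 4 lower in the late shaft, beside 12.7% and 6.3% of all genes. *Numb* was higher by 0.72 ± 0.13 (adjusted p = 2.53e-06), to 75.9 ± 8.13 CPM. *Dtx3l*, a Deltex-family gene, was lower at -1.84 ± 0.65 (adjusted p = 0.0305, on 4 UMIs in the late shaft) and *Lfng*, a fringe glycosyltransferase gene, at -0.81 ± 0.25 (adjusted p = 0.0110).

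Vessel-rich spots were compared within the 2214 spots of the 7 clusters whose highest marker list was neither an epithelial one nor the melanocyte list. These were not free of follicle RNA: besides the muscle, *Adipoq*-led and MHC class II-rich clusters they held 3 unnamed clusters, of which 1 of 471 spots was led by *Car6* and *Trpv6* with *Atp12a*, also a leading gene of the upper follicle, and 1 of 130 spots had the keratin-associated genes *Krtap20-2* and *Krtap6-3* among its leading genes. In each slice and cluster the tenth of spots highest in a list of 10 endothelial or 10 smooth muscle and pericyte markers was set against the other spots, which gave 219 against 1995 spots for each list, with 50 spots in both rich sets. With the endothelial list, 1 of 9 genes tested was called, beside 1.78% of all genes (1.25% higher and 0.532% lower). *Notch3* was 42.9, 52.4, 54.9 and 62.2 CPM in rich spots against 35.3, 29.5, 31.9 and 37.2 CPM in the others. Every slice of rich spots was above every slice of the others, and the log2 fold change was 0.63 ± 0.14 (edgeR adjusted p = 0.00679). The call was lost without slice 2 (adjusted p = 0.0788) or slice 3 (0.0544) and with DESeq2 (0.0881). In the 1594 spots of the named clusters alone, a choice made after the data were seen, it was 0.64 ± 0.16 (adjusted p = 0.00955). *Hey1*, known as a target of Notch in endothelium, was 8.12, 6.72, 8.90 and 7.31 CPM against 4.62, 3.83, 3.42 and 3.43 CPM, higher in all 4 slices but on 22 UMIs, and it did not pass (0.98 ± 0.37, adjusted p = 0.248).

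With the smooth muscle and pericyte list, *Notch3* was again the 1 gene called of 9, beside 2.03% of all genes (1.55% higher and 0.473% lower). It was 47.7, 47.5, 51.4 and 79.5 CPM against 34.9, 30.03, 32.3 and 35.4 CPM, with no overlap, and higher by 0.73 ± 0.14 (adjusted p = 0.000766). Without slice 4 the adjusted p was 0.0640 and the log2 fold change 0.57, and in the named clusters alone it was 0.74 ± 0.16 (adjusted p = 0.00415). *Hey1* was 8.56, 7.91, 4.40 and 8.83 CPM against 4.59, 3.70, 3.90 and 3.27 CPM, which overlapped, and did not pass (0.92 ± 0.39, adjusted p = 0.331). *Notch1*, *Jag1*, *Hes1* and *Heyl* did not pass in either comparison, with *Hes1* at 0.02 ± 0.10 in both.

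Of all genes called, 70.1% were higher in endothelium-rich and 76.6% in smooth muscle and pericyte-rich spots, against 85.7% and 100% with DESeq2. Other cells moved with these spots. In smooth muscle and pericyte-rich spots the 10 mural markers summed to 1144 to 1333 CPM over the slices against 554 to 665 CPM, the 10 endothelial markers to 285 to 392 CPM against 210 to 233 CPM and 8 dermal fibroblast markers to 15869 to 23770 CPM against 12924 to 16322 CPM. In endothelium-rich spots the endothelial markers summed to 624 to 726 CPM against 179 to 191 CPM and the mural markers to 758 to 969 CPM against 595 to 712 CPM. The 8 MHC class II markers were higher in smooth muscle and pericyte-rich spots in all 4 slices (1111 against 768 CPM), and in endothelium-rich spots the 8 epidermis markers (1870.2 against 2676 CPM) and 8 upper follicle markers (4173 against 5559 CPM) were lower in all 4. The inner root sheath and both shaft lists were also lower in all 4 slices with either vessel list, by -0.17 to -0.10 on the log2 scale. The part of these markers in the *Notch3* difference was not tested. Of the other pathway genes 0 were called in edgeR or DESeq2 in either comparison, of 50 and 49 tested. At an unadjusted p under 0.05 in edgeR there were 6 with the endothelial list, beside 1253 of all 12033 genes. With the other list there were 2, beside 1292 of all 12047 genes. Neither count is read as a result about these genes. The endothelial ligand gene *Dll4* (1.13 ± 0.40, adjusted p = 0.185) was among the 6 and *Notch4* (0.96 ± 0.39, adjusted p = 0.298) among the 2. Both are named here after their values were seen.

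**Figure D4:**
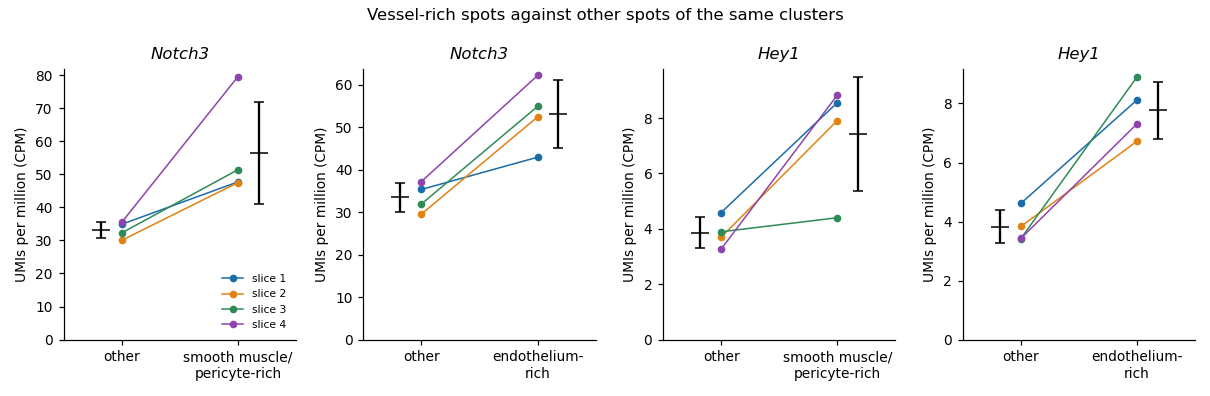
Level of *Notch3* and *Hey1* in CPM (vertical axis, from 0) in spots rich in smooth muscle and pericyte or endothelial markers and in other spots; lines join the values of a slice and bars beside them are the mean and SD, and the other spots are those of the same clusters. *Notch3* was higher in rich spots in all 4 slices with both lists, and the value of slice 4 with the smooth muscle and pericyte list, 79.5 CPM, stood above the others.

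Values were also compared by position. Each slice was cut into 3 strips by position, and the labels tie no spot to a mouse. *Xist*, a transcript of female cells, was set against a few genes of the Y chromosome by their summed UMIs. Its share of these UMIs was 79.9% to 86.7% in strip 3 over the slices and 9.73% to 15.1% in strips 1 and 2. With each strip summed over slices, *Notch1* in the matrix was 279, 281 and 266 CPM and *Jag1* there 98.2, 112 and 119 CPM. *Notch2* in the *Krt32*-led region was 77.0, 93.1 and 100.4 CPM, and *Heyl* in the *Dct*-led region 46.0, 53.9 and 57.9 CPM. Each of these strip values was above every strip value of the same gene in the epidermis.

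As a description over the 11 regions, which share slices and spots at their borders, the genes whose pattern was most like that of each member were ranked by Pearson correlation of log2(CPM + 1) among 8470 genes. *Notch1* was followed by *Top2b* and *Sufu* (r = 0.98 and 0.96) and *Jag1* by *Tsnax*, *Fbxo22* and *Utp23* (r = 0.98, 0.97 and 0.96). *Notch2* was followed by *Tatdn2*, *Sars* and *Kcnk6* (r = 0.97, 0.95 and 0.94), and *Heyl* by *Usp12* and *Bag2* (r = 0.96 and 0.95), both highest in the *Dct*-led region as *Heyl* was. *Notch3* was followed by *Snx2* (r = 0.93), *Jag2* by *Mif* (r = 0.92), *Hes1* by *Tmem39a* (r = 0.95), and *Dll1* by *Gle1* at a lower r of 0.80.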

How the data were processed

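Per the submitters' notes and the deposited files, the authors aligned and counted reads with Space Ranger 2.0.1 on mm10, and the deposited matrices hold UMI counts per spot and feature, with no normalization. The counts of the CreERT transgene were not analysed here. The members, gene lists and comparisons were chosen with earlier results of these data known. Barcodes mark positions, and 1842 of 2485 occurred in more than 1 slice.

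Spots with under 250 genes were removed. The rest were clustered in Seurat 5.3.0 (2000 variable genes without the pathway genes, 30 principal components, 20 neighbors) into 18 clusters, and no doublet caller was run on spots. A cluster took the name of the list whose markers had the largest mean log2 fold. At least 3 markers had to be up by at least 1, and 1 had to be among the 20 leading genes. The cluster also needed at least 10 spots in every slice. This rule was set after the clusters were seen. No cluster separated inner root sheath from early shaft, so these planned comparisons were made with both together.

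UMIs were summed per slice and region, scaled by TMM, filtered on low counts and tested in R 4.3.3 with edgeR 4.0.16 (quasi-likelihood, slice as a block, two-sided), with DESeq2 1.42.0 as an alternative. The same slice number marks the same slice in each region, which is where the pairing comes from. On simulated data for matrix against outer root sheath (11229 genes) the test recovered 40% of genes set to differ by 0.5 (log2) and 95% of those set to differ by 1. The simulated spread was assumed and not taken from the data, the slice effect was shared by both regions, and only these regions were fitted. The shares hold for that setting and do not give the power of the tests above. Vessel-rich spots were the highest 10% of each slice and cluster. Slice totals of 19393026 to 26910422 UMIs set the precision, and floors of 3 UMIs cover counting error only.

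Genes named were the 10 members, the 2 called pathway genes with the largest rise and the 2 with the largest fall in each comparison, and up to 3 genes most like each member among those of at least 20 CPM in a region, and some genes that this rule names are not reported here. Positions were taken from the GENCODE annotation of GRCm38 and promoters from RefSeq.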

Additional observations from a re-analysis of the deposited data

Results flagged for a closer look

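Over 150 sets of 4 slices, 10 had 1 slice far from the other 3 by Dixon's test of the gap to the nearest slice, where chance gives about 1 in 20, and 5 of the 10 were in slice 4. *Dll1* was 18.7 CPM in the matrix of slice 4 against 10.2 to 11.2 CPM in the others, 16.0 CPM in the upper follicle of slice 4 against 4.20 to 6.14 CPM, and 5.48 CPM in the endothelium-rich spots of slice 4 against 8.90 to 9.41 CPM. *Notch3* was 79.5 CPM in the smooth muscle and pericyte-rich spots of slice 4 against 47.5 to 51.4 CPM. *Jag1* was 61.7 CPM in the epidermis of slice 3 against 43.9 to 46.0 CPM, and 38.6 CPM in the MHC class II-rich region of slice 2 against 47.5 to 48.8 CPM. *Notch1* was 156 CPM in muscle of slice 3 against 139.9 to 141 CPM. The 3 values of *Hes5* rested on 1 UMI each, 1.58 CPM in the sebaceous gland and 0.585 CPM in the epidermis of slice 1 and 0.410 CPM in the outer root sheath of slice 4, with 0 in the other slices.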

How the results depend on the processing

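Of 19 called fold changes, 12 kept their direction and call in every refit, and of 271 refits 243 kept both, 24 lost the call and 4 turned direction; 29 of 531 refits of the uncalled ones became called. The slices pair the regions, and without the replicate block the call of *Hes1* in outer root sheath against epidermis was lost (adjusted p = 0.0917), the only call of a member that the block changed. In upper follicle against epidermis, 1 member was higher with 12 clusters (*Notch1*, 0.24, which turned direction) and 1 with no clusters (*Hes1*, 0.30), where 2 were lower. In matrix against outer root sheath, 2 were lower without the low-count filter, with library size alone, DESeq2, 12 clusters, RPCA or 3 strips as units, and *Jag2* turned to 0.36 with 24 clusters. In inner root sheath and early shaft against matrix, 2 were lower at 5500 UMIs per spot. In late shaft against inner root sheath and early shaft, 2 were higher with no clusters and with RPCA and 6 lower with library size alone. There *Notch1* turned to 0.22 with RPCA and 0.16 with a wider naming of clusters, *Jag1* to 0.074 and 0.16, *Notch2* to -0.66 and -0.49 and to -0.50 with no clusters, *Jag2* to 0.36 with no clusters and 0.53 with RPCA, and *Hes1* to 0.22 with no clusters. The wider naming, joining the slice 1 cluster to the outer root sheath, and the named clusters alone for vessel-rich spots were chosen after seeing the data, and 12 clusters gave no late shaft region. In endothelium-rich spots 0 members were called with DESeq2, 3 strips as units or 5500 UMIs, and in smooth muscle and pericyte-rich spots 2 in the highest 20% (*Hey1*, 0.95, adjusted p = 0.0472). Over all genes the vessel calls fell from 150 higher and 64 lower (endothelial list) and 187 and 57 (the other list) to 72 and 12 and 79 and 0 with DESeq2, and to 101 and 4 and 103 and 2 without the replicate block, and in the late shaft 1461 higher and 723 lower became 938 and 2937 with library size alone. The cause was not tested in any of these. Leaving out each slice gave 3 to 4 members higher and 1 lower in outer root sheath against epidermis, 2 higher and 1 to 2 lower in matrix against outer root sheath, 2 higher and 2 to 4 lower in inner root sheath and early shaft against matrix, 3 lower in the late shaft, 0 to 1 higher with either vessel list and 0 in upper follicle against epidermis. The region of the highest mean stayed for 6 to 9 of 10 members, the 4 that moved without slice 3 being *Hes1*, *Hes5*, *Hey1* and *Notch3*. Depth limits *Hes5*, *Hey1* and *Dll1*, with 25, 301 and 835 UMIs.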

Other observations

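The *Dct*-led region, which was set apart by melanocyte genes and also led by the shaft keratin gene *Krt35*, was in no planned comparison and was noticed after its values were seen. It held the highest mean of *Jag1* (129 ± 11.3 CPM) and of *Heyl* (53.0 ± 10.4 CPM), and *Notch1* there was 224 ± 16.0 CPM. In its 4 slices *Heyl* was 40.6, 49.0, 58.3 and 64.2 CPM against 23.5, 24.7, 25.4 and 28.0 CPM in the matrix, with no overlap. *Hes1* was 97.5 CPM there, within its range over the other follicle regions. No test was made.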
